A study of Mus musculus with 2 samples.

Results

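The cells described here are retinal cones in which the short-wave opsin made up nearly all of the cone opsin RNA. A cell was taken when it had at least 800 UMIs (unique molecular identifiers, 1 per captured RNA molecule), at most 20% of them mitochondrial, at least 1% from the cone genes Pde6h, Arr3, Gnat2 and Pde6c, at least 5 from the opsin genes Opn1sw and Opn1mw, and at least 80% of those 5 or more from Opn1sw. Of 19562 deposited cells, 439 met the rule, 210 of 12393 in the STZ library and 229 of 7169 in the control library. The cells were chosen by the counts of these 6 genes, whose levels are therefore given as a description.

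Both groups were male C57BL/6 mice. The STZ mice had been injected into the peritoneum with streptozotocin, a toxin of the insulin-producing beta cells, at 55 mg/kg and 3 to 5 weeks of age, developed diabetes, defined as blood glucose of more than 300 mg/dL, and stayed at high glucose for 25 weeks. The control mice were untreated, and a vehicle injection is not named for them. Each group was 1 library of 3 pooled retinas, sequenced with the 10x Chromium 3' chemistry, so every value is from 1 library per group, no test was possible, and 95% intervals cover counting error only. The 2 pools cannot show how much mice of 1 group differ from each other, and reads of single mice within a pool were not told apart here.

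Cones are the photoreceptors of daylight and colour vision. Most mouse cones make both opsins in a gradient across the retina, with Opn1sw (short-wave, ultraviolet-sensitive) high ventrally and Opn1mw (middle-wave, green-sensitive) high dorsally, while a minority of cones make Opn1sw alone and contact a dedicated cone bipolar cell. Light-activated opsin switches on the cone transducin (Gnat2, Gnb3, Gngt2), which releases the phosphodiesterase (Pde6c with its inhibitory subunit Pde6h), so that cyclic GMP drops and the Cnga3 and Cngb3 channel closes. Thyroid hormone receptor beta (Thrb) with its partner Rxrg is known in mouse to hold Opn1sw down and Opn1mw up.

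The sequences before the 2 opsin genes are shown because the cells are sorted by which of these genes is read, and that before Ccdc136 because this neighbour of Opn1sw followed the opsin in the counts. Each line gives the 250 bases before the RefSeq transcript start (GRCm38.p6), 5′ to 3′ on the strand of the gene, with capitals for matches on either strand to 3 motifs. These were AGGTCA, the half-site of nuclear receptors, then the core of the CRX site, which is TAATCC, and the TATA box, searched as TATAAA.
Opn1sw, chr6:29380514-29380763, minus strand: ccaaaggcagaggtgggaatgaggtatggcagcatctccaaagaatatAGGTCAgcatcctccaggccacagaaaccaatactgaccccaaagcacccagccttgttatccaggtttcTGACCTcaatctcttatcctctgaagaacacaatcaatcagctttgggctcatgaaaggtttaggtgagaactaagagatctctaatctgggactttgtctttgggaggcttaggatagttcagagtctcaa
Ccdc136, chr6:29396325-29396574, plus strand: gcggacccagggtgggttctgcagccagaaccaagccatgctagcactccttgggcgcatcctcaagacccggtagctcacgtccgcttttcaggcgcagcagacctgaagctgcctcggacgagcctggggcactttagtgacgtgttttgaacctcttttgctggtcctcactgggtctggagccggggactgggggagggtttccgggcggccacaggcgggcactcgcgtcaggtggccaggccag
Opn1mw, chrX:74127216-74127465, plus strand: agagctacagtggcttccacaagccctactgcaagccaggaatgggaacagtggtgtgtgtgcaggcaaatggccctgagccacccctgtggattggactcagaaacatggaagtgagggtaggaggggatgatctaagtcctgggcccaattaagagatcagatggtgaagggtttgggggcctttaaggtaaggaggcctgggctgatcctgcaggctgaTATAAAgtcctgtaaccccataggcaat
The window of Opn1sw held 2 matches to the nuclear receptor half-site, that of Opn1mw held 1 match to the TATA box, and that of the first of 4 Ccdc136 starts held 0 of the 3 motifs. Of 32851 promoters of the same length, 14.0% held the half-site, 6.25% the CRX core and 12.4% the TATA box, so these matches are common letters and describe only the windows. Opn1sw and Ccdc136 point away from each other on chromosome 6, with 16062 bases between their starts.

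Cone genes that did not choose the cells were high in them too. Per cell, the median was 62 Opn1sw and 5 Opn1mw UMIs in STZ, against 84 and 7 in control. No Opn1mw UMI was found in 51 of 210 cells in STZ (24.3%, exact binomial interval 18.6 to 30.7%), against 38 of 229 in control (16.6%, 12.02 to 22.1%). All 14 genes of the cone marker list were present in both libraries. Of these, Opn1sw, Opn1mw, Arr3, Gnat2, Pde6h and Pde6c were used to choose the cells. The 8 others, among them Gngt2, Gnb3, Guca1a and Cngb3, summed to 19429 CPM (UMIs of the genes scaled to 1e6 UMIs of these cones) in STZ and 19117 CPM in control, against 2098.5 and 1507 CPM in all kept cells outside the cone gate. Genes of the rod marker list differed among themselves. The rod transducin gene Gnat1 was at 265 CPM in STZ and 192 CPM in control, below the 686 and 673 CPM of the cells outside the gate. Sag, at 4601 CPM and 6391 CPM, Pde6g, at 3150 CPM and 3251 CPM, and Gngt1, at 3077 CPM and 4380 CPM, were above the cells outside the gate, which had 920 and 849 CPM of Sag, 1024 and 950 CPM of Pde6g and 1867 and 1862 CPM of Gngt1.

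The libraries differed in depth, which touches the counts per cell above and each result that follows. The short-wave-dominated cones had a median of 4064.5 UMIs per cell in STZ and 5233 in control, 1911 and 2225 genes, and 13.9% and 12.4% mitochondrial UMIs, and summed to 840552 and 1176654 UMIs. Markers of bipolar cells and Müller glia were higher in these cones in STZ. The 10 bipolar cell markers summed to 692 CPM in STZ and 461 CPM in control (1.5-fold, 1.33 to 1.69). The 8 Müller glia markers summed to 371 CPM and 270 CPM (1.37-fold, 1.17 to 1.61). Outside the cone gate both sums were lower in STZ, at 8899 and 9369 CPM for bipolar cells and 10733 and 14543.5 CPM for Müller glia. In these cones the amacrine, horizontal, ganglion, vascular, pigment epithelium and immune lists were at most 40.8 CPM in both libraries. By the levels of 12 markers of other cells, free RNA was estimated at 5.90% of the UMIs of these cones in STZ and 3.29% in control. Its part in the results was not tested beyond subtracting it, and the estimate does not tell free RNA from pairs of cells. Of all cells, 21 barcodes occurred in both libraries, 2 of them in these control cones and 0 in these STZ cones, and without them the share of these cones among kept control cells was 4.51%. Scrublet, which scores cells that look like pairs, placed 16 of the 210 STZ cones and 7 of the 229 control cones among its highest scores.

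Short-wave-dominated cones took a smaller share of the STZ library. They made up 210 of 6900 cells that passed the UMI and mitochondrial limits in STZ (3.04%, exact interval 2.65 to 3.48%), against 229 of 5054 in control (4.53%, 3.97 to 5.14%). Gated cones as a whole were 14.3% and 15.2% of the same cells. Among cones with at least 5 opsin UMIs, 21.8% were short-wave-dominated in STZ (210 of 964, 19.2 to 24.5%) and 29.97% in control (229 of 764, 26.7 to 33.4%), while mixed cones, with Opn1sw above 20% and below 80%, were 19.1% and 17.4%, and middle-wave-dominated cones, with Opn1sw at most 20%, were 59.1% and 52.6%.

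**Figure D1:**
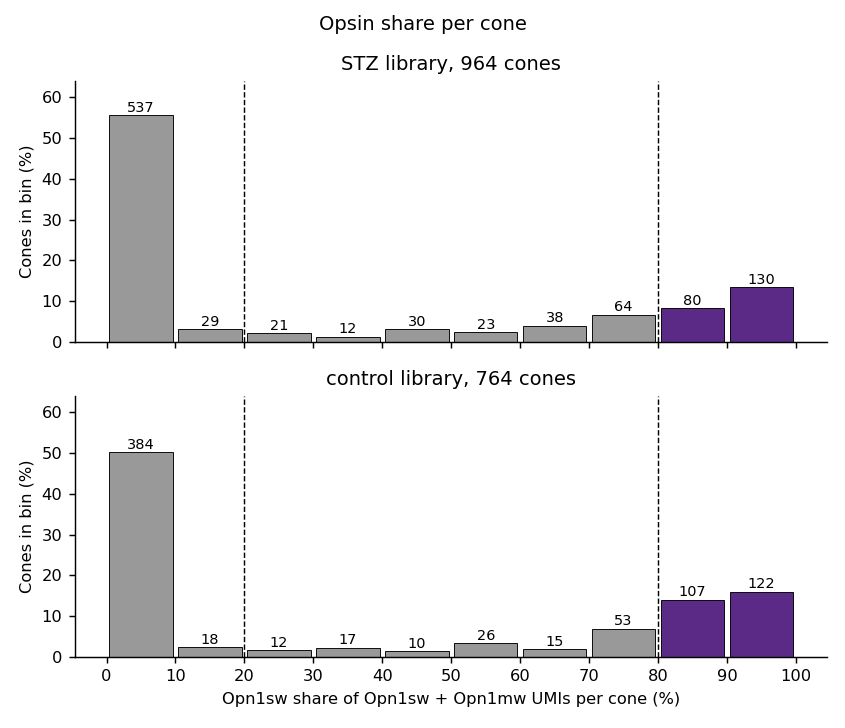
Share of Opn1sw among the opsin UMIs of each cone, in bins of 10%, with STZ above control. Bar heights are the percent of all cones with at least 5 opsin UMIs in that library, the number above a bar is its cells, purple bars are the short-wave-dominated cones, and dashed lines mark 20% and 80%. The bin from 80 to 90% held 80 STZ cones and 107 control cones, and the bin from 90 to 100% held 130 and 122.

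The gap was widest just above the threshold. Cones with 80 to 90% Opn1sw were 8.30% of the STZ cones and 14.0% of the control cones, and those with 90 to 100% were 13.5% and 16.0%. Just inside the threshold, at 80 to 85%, were 33 STZ and 47 control cones, which was 3.42% and 6.15% of the cones. Just outside, at 75 to 80%, were 42 STZ and 37 control cones, or 4.36% and 4.84%. Cones with at least 95% Opn1sw numbered 78 in STZ and 66 in control, which was 1.13% and 1.31% of the kept cells, and the interval of the log2 ratio of these shares ran from -0.68 to 0.26. With these numbers of cells the interval included 0, so it does not tell whether the share of cones with nearly pure Opn1sw differed. When cells were held to 10% mitochondrial UMIs, 36 STZ and 58 control cells were left, 37.1% and 34.3% of cones. The log2 ratio of these shares was 0.11, with an interval from -0.37 to 0.59 that includes 0, so its direction is not settled. The log2 ratio of the share among kept cells was -0.54 in that setting, with an interval from -1.14 to 0.05.

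Genes that set these cones apart from middle-wave-dominated cones were looked for within each library, where both classes share 1 library and 1 preparation. The classes were cut from the opsin counts, so the ratios describe them. Of 6826 genes with enough UMIs, 64 were at least 1.5-fold higher in short-wave-dominated cones in both libraries (0.938%) and 83 at least 1.5-fold lower (1.22%), against 4.26% higher and 5.41% lower in STZ alone and 3.59% and 3.93% in control alone, and the intervals of 53 and 57 of these stayed off 1 in both. The 2 classes differed in depth too, with medians of 4959.5 and 5889 UMIs per middle-wave-dominated cone in STZ and control.

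Syndig1l had the largest ratio of the named genes by the smaller of its 2 libraries. This gene (chr12:84677277-84698831, mm10, minus strand) encodes a membrane protein of the family of SynDIG1, which acts at excitatory synapses. In STZ it had 216 UMIs (257 CPM) in short-wave-dominated cones, against 32 UMIs (11.7 CPM) in middle-wave-dominated cones, which is 21.9-fold (15.1 to 32.9). In control it had 230 UMIs (195 CPM) against 16 UMIs (6.97 CPM), which is 28.1-fold (16.9 to 49.9). The cells outside the cone gate were at 9.43 CPM in STZ and 8.26 CPM in control. With each cell thinned to 800 UMIs, Syndig1l was found in 19.0% of these cones in STZ and 13.1% in control, against 1.05% and 0.498% of middle-wave-dominated cones and 0.226% and 0.151% of glia-gated cells, taken as a measure of free RNA.

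Ccdc136, which encodes a coiled-coil protein and lies beside Opn1sw (chr6:29396309-29426994, plus strand), had the most UMIs of the 10 higher genes. It was at 1597 CPM in short-wave-dominated, 1003 CPM in mixed and 141 CPM in middle-wave-dominated cones in STZ, and at 1268, 788 and 74.9 CPM in control. The ratio of the outer classes was 11.3 (10.1 to 12.7) in STZ and 16.9 (14.5 to 19.9) in control. In cells thinned to 800 UMIs it was found in 68.1% and 60.3% of short-wave-dominated cones in STZ and control, against 9.65% and 5.47% of middle-wave-dominated cones, and in 8.53% and 4.47% of glia-gated cells, whose median depths were 4555 and 5756 UMIs before thinning. The share in middle-wave-dominated cones was thus close to that in glia-gated cells. All kept cells outside the cone gate were at 393 CPM in STZ and 345 CPM in control, above the middle-wave-dominated cones. The part of free RNA in the level of middle-wave-dominated cones was not tested. The counting was not stated to use strand in the sources used here, so reads of an overlapping transcript cannot be told apart.

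Channel genes were among the others. Cacna1h, the pore subunit of a T-type calcium channel, had 78 UMIs in short-wave-dominated and 41 UMIs in middle-wave-dominated cones in STZ (92.8 and 15.0 CPM), and 82 and 5 UMIs in control (69.7 and 2.18 CPM). Its ratio was 6.18 (4.18 to 9.26) in STZ and 32 (13.2 to 101.2) in control, and cells outside the gate also held it, at 81.6 CPM in STZ and 65.9 CPM in control. Kcne2, an accessory subunit of potassium channels, was at 677 CPM and 294 CPM in STZ and at 813 CPM and 331 CPM in control, but was highest in mixed cones, at 762 CPM in STZ and 906 CPM in control. The corepressor gene Tle1, the RNA-binding gene Ralyl, Srcin1 (an adaptor that restrains Src kinase), Ssbp4, Rtl8a and the cardiolipin synthesis gene Pgs1 were between 2.11-fold and 7.06-fold higher.

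Lower in short-wave-dominated cones were genes of several kinds. Smug1, a uracil-DNA glycosylase of base excision repair (chr15:103153290-103167092, minus strand), was at 30.9 CPM in short-wave-dominated and 152 CPM in middle-wave-dominated cones in STZ, and at 45.04 CPM and 256 CPM in control. Samd7, a Polycomb component of photoreceptors known in mouse for silencing genes that do not belong in rods (chr3:30746293-30767174, plus strand), was at 14.3 CPM against 124 CPM in STZ and at 23.0 CPM against 72.3 CPM in control. Middle-wave-dominated cones thus had 8.72 times (4.93 to 17.0) the Samd7 level of short-wave-dominated cones in STZ and 3.15 times (2.09 to 4.92) in control. Gabrr3 (a GABA receptor subunit), Nxnl2 (a thioredoxin-like factor known in mouse for photoreceptor survival), the importin gene Kpna2, the peptide hormone gene Apela, Mgst3 (a microsomal glutathione transferase), Ssfa2, the kinase gene Cit and the pyrophosphatase gene Ppa1 made up the 10, with ratios of middle-wave-dominated over short-wave-dominated cones of 1.80 to 5.37.

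Mixed cones stood between the 2 classes for most of these genes. Of the 10 higher genes, 9 were between in STZ and 8 in control, with Kcne2 the exception in STZ and Kcne2 and Pgs1 in control. Of the 10 lower genes, 10 were between in both. The genes were picked for the gap between the outer classes, which favours a place between for the mixed cones. The share over all tested genes was not counted, so these counts describe the named genes only. The calls of 9 of the 10 higher and 7 of the 10 lower genes held under every alternative setting, and those of Srcin1, Cit, Nxnl2 and Ppa1 did not.

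**Figure D2:**
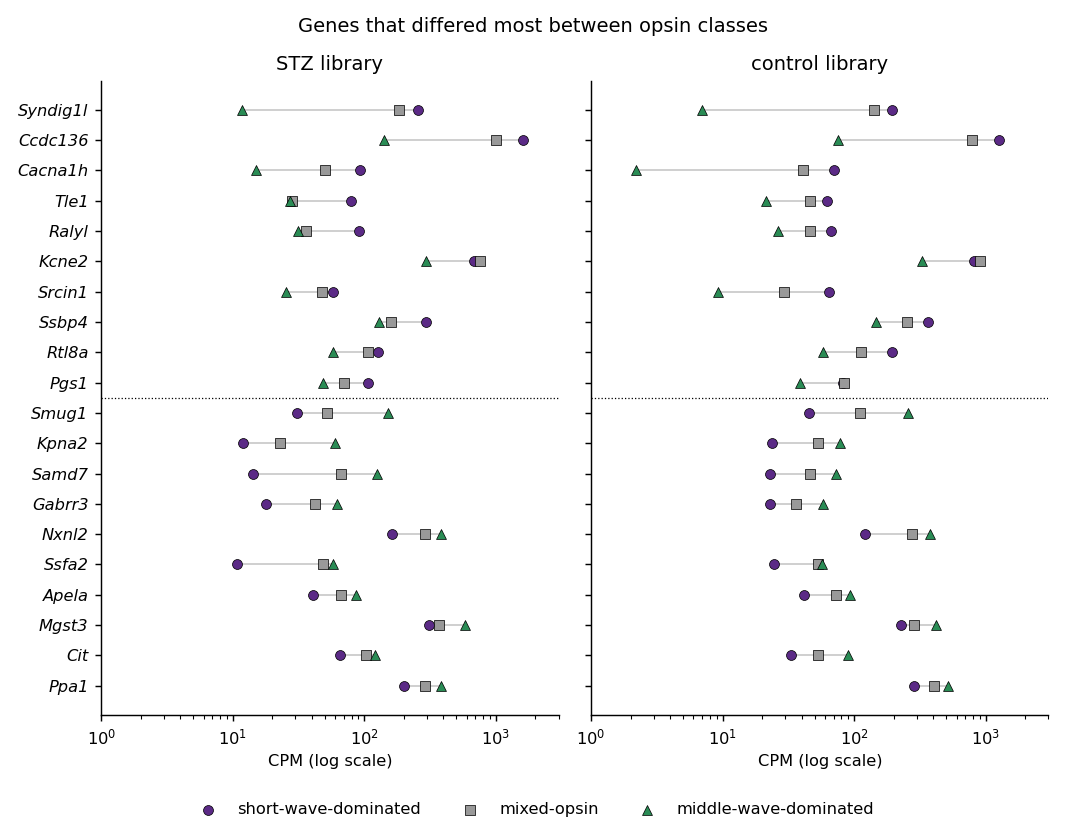
Level of the 20 genes named by the ratio of short-wave- over middle-wave-dominated cones, in CPM on a log axis, with the STZ library on the left and the control library on the right. Purple circles are short-wave-dominated, grey squares mixed and green triangles middle-wave-dominated cones, and the dotted line parts the 10 higher from the 10 lower genes. Of the upper 10 genes Syndig1l, Ccdc136 and Cacna1h show the widest gaps, and the squares lie between for 9 and 8 of the upper 10 genes.

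Within the short-wave-dominated cones, those with at least 95% Opn1sw were set beside those with 80 to 95%. Ralyl was at 135 CPM in the purer cones and 70.5 CPM in the others in STZ, and at 150 CPM and 34.4 CPM in control. Kcne2 went the other way, at 494 CPM and 765 CPM in STZ and 504 CPM and 936 CPM in control. The purer cones had 2 Samd7 UMIs in each library, against 10 UMIs in the others in STZ and 25 UMIs in control. Gabrr3 had 2 and 0 UMIs in the purer cones of STZ and control, against 13 and 27 UMIs in the others. Thrb, the receptor that lowers Opn1sw, was at 249 CPM and 437 CPM in STZ and at 198 CPM and 353 CPM in control, so the purer cones were lower in both libraries. Its partner Rxrg was higher in the purer cones in both, at 132 CPM and 96.9 CPM in STZ and at 120.006 CPM and 58.1 CPM in control. Syndig1l was lower in the purer cones in both libraries, at 172 CPM and 298 CPM in STZ and 144 CPM and 216 CPM in control. Purer cones numbered 78 and 66, with medians of 56 and 95 opsin UMIs in STZ and control, and their lower counts rest on few molecules.

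Among regulators of opsin choice, Nr2f2 separated the 2 classes. It encodes COUP-TFII, which in mouse is known as a dorsal factor that holds Opn1sw down. It had 9 UMIs in short-wave-dominated cones (10.7 CPM) against 65.5 CPM in middle-wave-dominated cones in STZ, and 4 UMIs (3.40 CPM) against 53.1 CPM in control. The level in middle-wave-dominated cones was 6.12 times (3.15 to 13.6) that in short-wave-dominated cones in STZ and 15.6 times (5.95 to 58.3) in control. Mixed cones were at 30.7 CPM in STZ and 8.39 CPM in control, and cells outside the cone gate at 71.6 CPM and 41.8 CPM. Of 16 tested genes of the list on cone fate and opsin choice, Nr2f2 was the 1 lower gene and Ccdc136 the 1 higher gene past 1.5-fold in both libraries. Over all 6826 tested genes 1.22% were lower and 0.938% higher in both. Thrb was below middle-wave-dominated cones by the same log2 value of -0.37 in STZ and in control, short of 1.5-fold. Crx, the homeobox factor of all photoreceptors, differed by 0.02 and 0.08 on the log2 scale. Of the 13 tested genes of shut-off and calcium feedback, 0 passed 1.5-fold in both libraries, and Guca1a (a calcium sensor of guanylate cyclase), Sag (arrestin 1) and Grk1 (the opsin kinase) were higher by 0.58, 0.63 and 0.61 in STZ and by 0.58, 0.44 and 0.39 in control. Arr3, the cone arrestin and a gene of the gate, was lower by log2 values of -0.54 and -0.62.

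Between STZ and control, heat shock chaperone genes of the short-wave-dominated cones were lower in STZ, and Drd4, Hmgb2 and Cirbp were among the higher genes. Of 5488 genes with at least 50 UMIs over both libraries, 316 were at least 1.5-fold higher in STZ (5.76%) and 275 at least 1.5-fold lower (5.01%), and the counting intervals of 226 and 190 of them stayed off 1. Over all tested genes the interval lay above 1 for 454 (8.27%) and below 1 for 432 (7.87%), and the median log2 ratio was 0.01. Intervals narrow as UMIs rise, so lists of abundant genes can leave 1 more often without a larger change. Of 13 tested mitochondrially encoded genes, 84.6% had an interval off 1 and 0 passed 1.5-fold. The shares over all tested genes that stand beside the lists below are not matched for UMIs.

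Opn1sw itself was at 15402 CPM in STZ and 16221 CPM in control, a log2 ratio of -0.07, and Opn1mw at 1404 CPM and 1643 CPM. Of the other cascade genes, Gnat2 was at 3631 CPM and 3060 CPM, Gnb3 at 4277 CPM and 3665 CPM, Pde6c at 1102 CPM and 1095 CPM, and Pde6h at 12305 CPM and 15122 CPM. Of the 4 cascade genes outside the gate 0 were higher and 1 lower by 1.5-fold, against 5.76% and 5.01% of all tested genes. The 4 log2 ratios had a median of -0.10. The intervals of 1 lay above 1 and of 2 below 1, against 8.27% and 7.87% of all tested genes. The gene past the fold was Cngb3, the modulatory subunit of the cone channel, at 301 CPM in STZ and 478 CPM in control (0.63-fold, 0.54 to 0.73), while its partner Cnga3 was at 84.5 CPM and 85.8 CPM. In middle-wave-dominated cones Cngb3 was at 347 CPM and 522 CPM.

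Of 13 genes of shut-off and calcium feedback 0 were higher and 1 lower by 1.5-fold, against 5.76% and 5.01% of all tested genes. The 13 log2 ratios had a median of -0.05. The intervals of 3 lay above 1 and of 5 below 1, against 8.27% and 7.87% of all tested genes. The gene past the fold was Guca1b, a calcium sensor of guanylate cyclase, at 132 CPM and 199 CPM (0.66-fold, 0.52 to 0.84), which in middle-wave-dominated cones was at 113 CPM and 98.4 CPM. Recoverin (Rcvrn, which restrains the opsin kinase) was at 2500 CPM in STZ and 3367 CPM in control, and arrestin 1 (Sag) at 4601 CPM and 6391 CPM. On the other side, Gnb5, part of the complex that switches transducin off, was at 565 CPM and 427 CPM, and Guca1a at 7482 CPM and 6732 CPM.

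**Figure D3:**
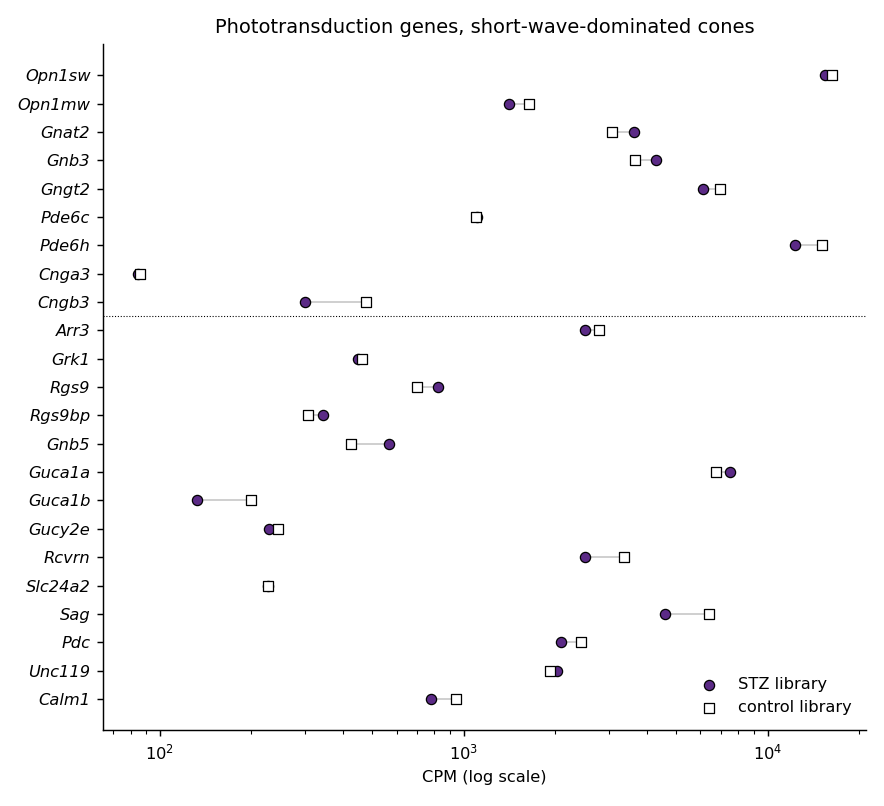
Level of 23 phototransduction genes in short-wave-dominated cones, in CPM on a log axis. Filled circles are the STZ library, open squares the control library, and the dotted line parts the opsins and the cascade (above) from shut-off and calcium feedback (below). Cngb3 and Guca1b show the widest gaps, and Opn1sw, Pde6c, Cnga3 and Slc24a2 nearly coincide.

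The tested structural, channel and synaptic genes stayed within 1.5-fold. Of 19 outer segment and cilium genes, 10 channels and pumps of the inner segment and 17 ribbon synapse genes, 0 passed 1.5-fold either way. Of all tested genes 10.8% passed it, a share that depends on the UMIs per gene. With at least 100 UMIs per gene, 92 of 3357 genes were higher and 111 lower. The lists were not matched to other genes for UMIs, so the contrast does not show that they were steadier. The median log2 ratios of these lists were -0.15, 0.005 and 0.01. In the same order, the intervals of 4 (21.1%), 5 (50%) and 4 genes (23.5%) were off 1, against 16.1% of all tested genes. Prph2 and Rom1, the disc rim proteins, were at 1222 CPM in STZ against 1243 CPM in control and at 1357 CPM against 1373 CPM. Of 15 cone fate genes, 2 were higher (13.3%) and 0 lower by 1.5-fold in STZ, against 5.76% and 5.01% of all tested genes. The 2 were Nr2e3, at 39 UMIs (46.4 CPM) and 24 UMIs (20.4 CPM), and Nrl, at 66 UMIs (78.5 CPM) and 57 UMIs (48.4 CPM). Both are factors that specify rods. Of rod genes, Gnat1 was higher in STZ as well, while Sag and Gngt1 were lower and Pde6g was at 0.969-fold (0.922 to 1.02). In these cones Sag, Gngt1 and Pde6g were above the cells outside the gate in both libraries, and Gnat1 was below them. These 4 genes do not stand for the rod marker list, of which some results are not reported here. The part of RNA from rods in these ratios was not tested. Thrb was at 376 CPM and 309 CPM, Rxrg at 108 CPM and 75.6 CPM, and Crx at 648 CPM and 637 CPM.

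Drd4 had the most UMIs of the 12 genes named as higher in STZ. It encodes the D4 dopamine receptor of photoreceptors, which in mouse couples retinal dopamine to cyclic AMP (chr7:141292006-141296464, plus strand). Short-wave-dominated cones had 426 Drd4 UMIs in STZ (507 CPM) and 178 in control (151 CPM), which is 3.35-fold (2.81 to 4.01). In cells thinned to 800 UMIs it was found in 32.4% of these cones in STZ and 12.2% in control, against 6.04% and 0.908% of glia-gated cells. Middle-wave-dominated cones had 668 CPM and 158 CPM, a larger ratio by 0.34 on the log2 scale, with an interval of the difference from 0.04 to 0.64. Of the 7 tested genes of dopamine, cyclic AMP and adenosine, the other past the fold was the calcium-stimulated cyclase gene Adcy1, which was lower, at 45.2 CPM and 83.3 CPM.

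Selenbp1 had the largest ratio of the 12 higher genes. The gene (chr3:94933056-94944758, plus strand) encodes a selenium-binding protein known in human as methanethiol oxidase. It had 83 UMIs in STZ (98.7 CPM) and 17 UMIs in control (14.5 CPM), which is 6.83-fold (4.02 to 12.3). A UMI was found in 53 of 210 cells (25.2%) and 10 of 229 cells (4.37%). Middle-wave-dominated cones had 151 UMIs in STZ and 1 UMI in control, a ratio of 127 with an interval from 22.4 to 5046. In cells thinned to 800 UMIs the share was 2.86% in STZ and 0.873% in control in short-wave-dominated cones, and 3.25% and 2.80% in glia-gated cells, so at that depth the share in these cones did not exceed the glia-gated cells. Reads shared with the near-identical Selenbp2 depend on how the counting assigned them.

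Nuclear proteins and repair genes made up others of the 12. Hmgb2, a chromatin architectural protein (chr8:57511907-57515999, plus strand), had 231 UMIs in STZ and 95 UMIs in control (275 CPM and 80.7 CPM, 3.40-fold, 2.67 to 4.37), and the linker histone gene Hist1h1e had 55 and 20 UMIs (3.85-fold). Of 13 tested histone and chromatin genes 4 were higher (30.8%) and 0 lower by 1.5-fold, against 5.76% and 5.01% of all tested genes. The 4 were Hmgb2, H3f3b at 2647 CPM and 1671 CPM, Hist1h1c at 117 CPM and 67.1 CPM, and Hmgb3 at 51.2 CPM and 29.8 CPM. Zc3h6, a zinc finger gene, had 102 and 34 UMIs (4.20-fold, 2.82 to 6.39). Xpa (nucleotide excision repair), Usp6nl (a GTPase-activating protein), Shd, Lias (lipoic acid synthase), Cbll1 (part of the RNA methylation complex), Fcf1 (ribosomal RNA processing) and Cwc27 (spliceosome) were 2.06-fold to 3.54-fold higher, on 43 to 59 UMIs in STZ and 17 to 40 UMIs in control.

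Chaperone genes were lower in STZ. Of 17 tested heat shock chaperones 0 were at least 1.5-fold higher and 6 lower, the intervals of 13 lay below 1, and the median log2 ratio was -0.48. Over all tested genes 5.01% were lower by 1.5-fold, the intervals of 7.87% lay below 1 and the median was 0.01. This list, like the others, was chosen with earlier results of these data known. Its counts therefore describe its genes and are not a test of the list. Hspa8, the constitutive Hsp70, was at 1114 CPM in STZ and 1650 CPM in control, Hsp90ab1 at 570 CPM and 816 CPM, Dnaja1 at 174 CPM and 287 CPM, and Hsph1 at 84.5 CPM and 128 CPM. Dnajb1, at 22 UMIs in STZ and 70 UMIs in control, and Chordc1, at 34 and 95 UMIs, were named among the 12 lower genes. The median over the list ranged from -0.51 to -0.36 across 20 alternatives, and was -0.71 in middle-wave-dominated cones.

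Of 15 tested genes of endoplasmic reticulum chaperones and the unfolded protein response, 5 were lower and 1 higher by 1.5-fold, against 5.01% and 5.76% of all tested genes, with intervals of 5 below 1 and 2 above it. The median was -0.42, and it differed between settings of depth, at -0.75 in cells with 1500 to 5000 UMIs and -0.04 with each cell thinned to 800 UMIs. Hspa5 (BiP, chr2:34771970-34777547, plus strand), the main chaperone of this compartment, had 187 UMIs in STZ and 535 UMIs in control (222 CPM and 455 CPM, 0.49-fold, 0.41 to 0.58). Xbp1, a transcription factor of the unfolded protein response, was at 33.3 CPM and 76.5 CPM, Pdia6 at 58.3 CPM and 98.6 CPM, Manf at 91.6 CPM and 153 CPM, and Calr at 195 CPM and 313 CPM. Sel1l, of the degradation pathway, was higher, at 61.9 CPM and 32.3 CPM. Of 6 tested genes of the integrated stress response 0 passed 1.5-fold, against 10.8% of all tested genes. Hspa5 was also lower in the cells outside the cone gate, at 235 CPM and 402 CPM, and in middle-wave-dominated cones, at 215 CPM and 436 CPM.

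Most glycolysis genes had a somewhat lower level in STZ. Of 22 tested genes 13 had an interval below 1 and 0 above it, against 7.87% and 8.27% of all tested genes, and the median log2 ratio was -0.23. The shares of intervals are not matched for UMIs, so they do not measure how large the changes were. Lower by 1.5-fold were 2 of the 22 (9.09%, against 5.01% of all tested genes), so few passed the fold. Pfkl, the liver-type phosphofructokinase, had 57 UMIs in STZ and 177 UMIs in control (67.8 CPM and 150 CPM), and Tpi1 was at 487 CPM and 733 CPM. Aldoa was at 1973 CPM and 2926 CPM, Eno1 at 628 CPM and 875 CPM, and Ldha at 769 CPM and 1028 CPM. The hexokinase gene Hk2 was closer, at 563 CPM and 648 CPM, and the glucose transporter gene Slc2a1 was at 53.5 CPM and 39.9 CPM. The median was -0.18 in middle-wave-dominated cones. Among 5 tested creatine and adenylate kinase genes, mitochondrial Ckmt1 was at 303 CPM and 487 CPM. In the nuclear-encoded respiratory chain 1 of 35 genes was past the fold (2.86%, against 10.8% of all tested genes). It was cytochrome c (Cycs, 168 CPM and 263 CPM), and the median of the list was -0.01.

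Cold-inducible RNA-binding proteins were higher in STZ. Cirbp had 517 UMIs in STZ and 231 UMIs in control (615 CPM and 196 CPM), and Rbm3 296 and 183 UMIs (352 CPM and 156 CPM). Of the 14 genes of this list the splicing regulator Tra2a was past the fold the other way, at 159 CPM and 252 CPM. Cirbp was higher across classes, at 602 CPM and 177 CPM in middle-wave-dominated cones, and in cells thinned to 800 UMIs it was found in 38.6% of short-wave-dominated cones in STZ and 15.7% in control, and in 36.5% and 16.1% of glia-gated cells. The metallothionein gene Mt1 had 114 and 34 UMIs (136 CPM and 28.9 CPM), a level that moved with that of the glia-gated cells, where 70.1% in STZ and 38.5% in control held it after thinning, against 12.4% and 1.75% of these cones. Among 11 clock genes, 2 were higher (18.2%) and 0 lower by 1.5-fold, against 5.76% and 5.01% of all tested genes. The 2 were Dbp, at 177 CPM and 112 CPM, and Bhlhe41, at 121 CPM and 66.3 CPM. The time of day of the dissections is not given in the sources used here.

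The rest of the 12 lower genes were of mixed kinds. Mrps36, linked to the mitochondrial oxoglutarate dehydrogenase complex, had 55 UMIs in STZ and 159 UMIs in control (65.4 CPM and 135 CPM, 0.48-fold, 0.35 to 0.66). Stk16, a Golgi kinase, had 17 and 62 UMIs (0.38-fold, 0.21 to 0.66), and Ift22, an intraflagellar transport protein, 19 and 63 UMIs. Cox19 (assembly of cytochrome oxidase), Rnf123 and Trim37 (ubiquitin ligases), Cd37 (a tetraspanin), Rexo2 (a mitochondrial oligoribonuclease) and As3mt (arsenite methyltransferase) were between 0.44-fold and 0.50-fold, on 21 to 48 UMIs in STZ and 62 to 136 UMIs in control.

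Middle-wave-dominated cones, measured in the same 2 libraries, had their own ratios for these genes. The 12 higher genes had a median log2 ratio of 0.92 there, between -0.23 for Fcf1 and 6.99 for Selenbp1. The 12 lower genes had a median of -0.63 there, between -1.05 for Rnf123 and -0.34 for Mrps36. Cells outside the cone gate differed the same way between the libraries for all of these genes except Cd37. In those cells Hmgb2 was at 195 CPM in STZ and 67.2 CPM in control, Drd4 at 134 and 42.5 CPM, and Chordc1 at 34.5 and 70.1 CPM. Cd37 was at 7.86 and 4.10 CPM. The differences are thus not particular to short-wave-dominated cones. The interval of the difference between the log2 ratios of short-wave- and middle-wave-dominated cones was off 0 for 6 of the 12 higher and 2 of the 12 lower genes, against 221 of 2437 genes compared in all (9.07%). The 24 genes were picked for their ratios in short-wave-dominated cones, so their counts are not set against that share as a result. Among the higher genes these were Selenbp1 and Drd4, with the larger ratio in middle-wave-dominated cones, and Usp6nl, Shd, Fcf1 and Cwc27, with the larger ratio in short-wave-dominated cones. Among the lower genes they were Stk16 and Mrps36, with log2 ratios of -1.38 and -1.05 in short-wave-dominated against -0.46 and -0.34 in middle-wave-dominated cones. Of the 12 higher genes 7, among them Drd4, Selenbp1, Hmgb2 and Zc3h6, stayed at least 1.5-fold higher under every alternative setting, and Shd, Lias, Cbll1, Fcf1 and Cwc27 did not. Of the 12 lower genes 8 stayed at least 1.5-fold lower, and Ift22, Dnajb1, Cd37 and Chordc1 did not.

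**Figure D4:**
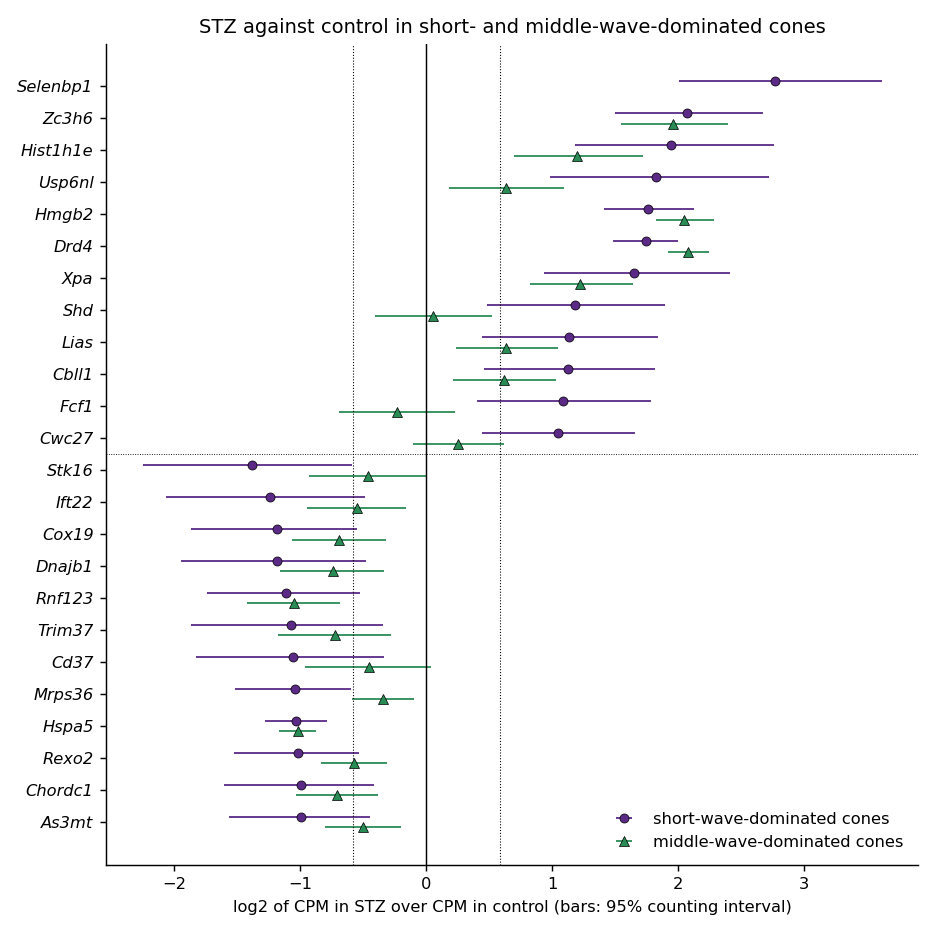
Ratio of the CPM in STZ over control for the 12 genes named as higher (top) and the 12 named as lower (bottom) in short-wave-dominated cones, on a log2 axis, with 95% counting intervals. Purple circles are short-wave-dominated and green triangles middle-wave-dominated cones, dotted vertical lines mark 1.5-fold, and the triangle of Selenbp1 is left out because its control count was 1 UMI. Hmgb2, Zc3h6 and Hspa5 lie close together in the 2 classes, and Shd, Fcf1 and Cwc27 lie near 0 in middle-wave-dominated cones.

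**Figure D5:**
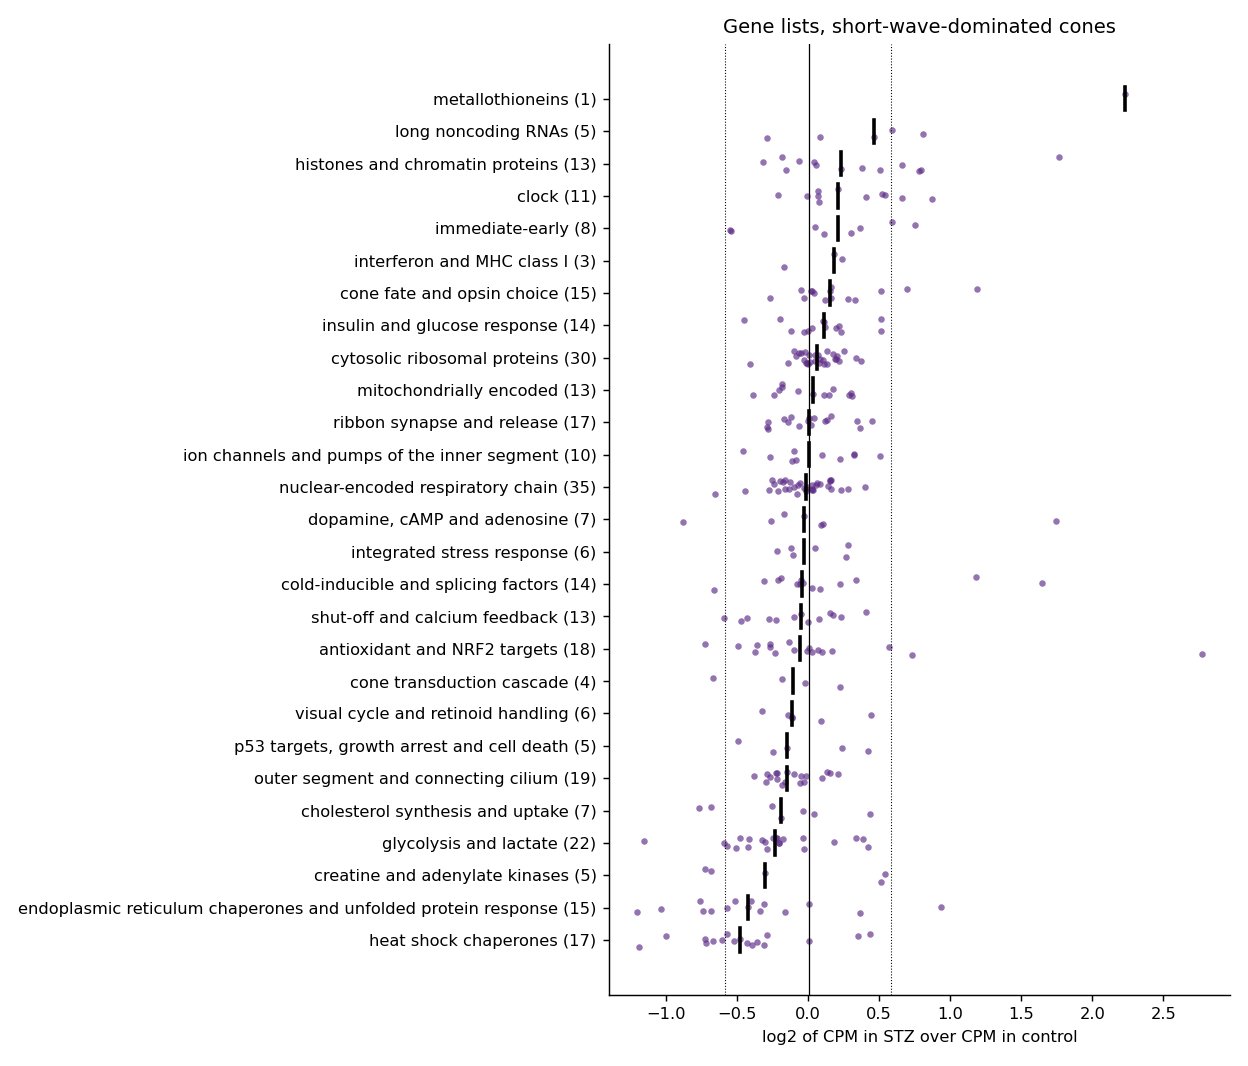
Log2 ratio of the CPM in STZ over control in short-wave-dominated cones for each tested gene of the 27 lists, with the number of genes in brackets. Points are genes, black bars the median of a list, the vertical line the median of all tested genes and dotted lines 1.5-fold. Heat shock chaperones and endoplasmic reticulum genes lie at the bottom with medians of -0.48 and -0.42, and the lists of cone function lie near the line.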

How the data were processed

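Both libraries are in 1 table that the authors deposited, with raw UMI counts for 17087 genes in 19562 cells, and the ending of a cell name gives its library. The submitters' processing notes name Cell Ranger 3.0.1, Seurat 3.0 and the build mm10. The settings and any use of strand are not given in the sources used here. Cells had been filtered before deposit, with no cell over 2999 genes, so shares describe the deposited cells. No doublets were removed in the main values, and the highest Scrublet scores (0.8% per 1000 cells, scanpy 1.11.5) were left out as an alternative.

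Counts were summed per opsin class and library and scaled to CPM, relative to all UMIs of that class. Ratios carry a conditional binomial interval and shares a Clopper-Pearson interval, both at 95%. A count of 0 was set to 3. Genes with at least 50 UMIs over both libraries counted as tested, and at least 1.5-fold as higher or lower. With 1 library per group no test was made and p-values were not computed. The ratio and its interval were checked on simulated counts. Glia-gated cells had at least 1% of UMIs in glial markers and at most 0.2% in cone genes. Intervals take UMIs as independent.

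The members and the 27 gene lists (480 entries, 8 genes not in the table) were chosen with earlier results of these data known. Named for STZ against control were the 12 genes of largest ratio in each direction, and for the opsin classes the 10 whose smaller ratio of the 2 libraries was largest, in each direction. They needed at least 50 UMIs, 50 CPM in the higher group, 10 cells, no cell with over 25% of the UMIs, an interval off 1, a level at least that of cells outside the gate, and a gene name that is not a model number. Other genes are named as list members or as markers, and Nr2f2 was singled out after its values were seen. Gene positions are from GENCODE vM21 on mm10. Python 3.11.15, numpy 2.4.6, scipy 1.17.1 and pandas 2.3.3 were used. Some results of the rod marker list are not reported here.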

Additional observations from a re-analysis of the deposited data

Results flagged for a closer look

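Fcf1, a gene of ribosomal RNA processing (chr12:84970897-84983303, mm10, plus strand), had log2 ratios of unlike sign in the 2 opsin classes. Short-wave-dominated cones had 47 UMIs in STZ (55.9 CPM) and 31 UMIs in control (26.4 CPM), a log2 ratio of 1.09, and middle-wave-dominated cones had 82 and 81 UMIs, a log2 ratio of -0.23, which is 0.851-fold with an interval of 0.618 to 1.17 that includes 1. In mixed cones the log2 ratio was 0.72. The difference of the log2 ratios was 1.32 (counting interval 0.53 to 2.11). With 1 library per group the difference was not tested, and in cones with at least 95% Opn1sw the log2 ratio of Fcf1 was 0.47.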

How the results depend on the processing

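The direction of both shares and the counts of genes were recomputed under up to 20 alternatives. Removing the highest Scrublet scores or the shared barcodes kept the 2 shares within their intervals and the 4 counts of genes within 1.5 times. Subtracting the free RNA, other totals and centring on the median gene concern the counts alone, which stayed within 1.5 times. The log2 ratio of the share among kept cells was -1.17 with cone genes at 2% of UMIs or more and -0.21 at 95% Opn1sw, against -0.57 in the main setting. The log2 ratio of the share among cones was -0.094 at 95% Opn1sw and 0.11 at 10% mitochondrial UMIs, against -0.46. The intervals of the first 2 values included 0. Genes higher in STZ numbered 316, and lower 275, against 118 and 143 at 10% mitochondrial UMIs (1544 tested), 131 and 120 at 95% Opn1sw (2178 tested), 83 and 85 with 800 UMIs per cell (1183 tested), 852 and 646 at 20 UMIs per gene (8141 tested), and 92 and 111 at 100 UMIs per gene (3357 tested). The higher genes numbered 196 at 90% Opn1sw (3668 tested) and 191 in cells with 1500 to 5000 UMIs (2950 tested). Genes higher and lower in short-wave- than in middle-wave-dominated cones numbered 64 and 83 (6826 tested). They numbered 10 and 14 at 10% mitochondrial UMIs (1248 tested) and 136 and 214 at 95% Opn1sw (6137 tested). In that range of UMIs they were 22 and 28 (2734 tested), and with 800 UMIs per cell 15 and 23 (1729 tested). At 20 UMIs per gene they were 130 and 170 (8954 tested), and at 100 UMIs per gene 30 and 48 (4741 tested). The lower ones numbered 127 at 90% Opn1sw (6418 tested). At 95% Opn1sw the counts were higher although fewer genes were tested, and the cause was not tested. For 3 named genes the value turned round, each on few UMIs, and the cause was not tested. Cwc27 had a log2 ratio of STZ over control of -0.59 and Srcin1 one of short- over middle-wave of -0.15 in STZ at 10% mitochondrial UMIs, and Dnajb1 was at 0.12 with 800 UMIs per cell. The other values were counted once per gene or list and alternative. For the named STZ genes 27 values moved beyond the main interval and 451 did not. For the opsin-class genes 79 values moved beyond it and 720 did not. The limits of 20 and 100 UMIs per gene change only which genes count as tested. Values of single genes could not move under them, and these values are among the 451 and 720. List medians have no interval, and 39 of their values moved past a fixed margin while 493 did not. No paired analysis was possible because each group is 1 library. With 210 and 229 cones, ratios of genes with about 50 UMIs carry intervals of more than 2-fold.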
